A study of Mus musculus with 6 samples.

Results

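The actin isoforms described here are 6 of the 23997 genes in the table of the DA (ductus arteriosus), namely *Acta2*, *Actg2*, *Acta1*, *Actc1*, *Actb*, and *Actg1*, taken by gene symbol. All 6 were listed, and all 6 were among the 12955 genes tested. The table held bulk RNA-Seq of DA from C57BL/6 mouse embryos at E17.5 without treatment, with 3 libraries of wild type embryos (WT0, WT1, and WT2) and 3 libraries of embryos carrying Prdm6f/f; SM22-Cre (KO0, KO1, and KO2). In the KO embryos both *Prdm6* alleles are floxed, and SM22-Cre is a Cre driven by the promoter of *Tagln*, a gene of smooth muscle cells (SMCs) that is also active for a time in the embryonic heart. The WT embryos are described as littermates, and whether a library came from a single embryo or from a pool was not given in the sources used here. The p values therefore measure only the spread between these libraries, which may be technical.

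Actin monomers assemble into thin filaments, along which myosin pulls to generate force in muscle and tension in other cells. Mammals have smooth muscle isoforms (α-actin from *Acta2*, also called αSMA, and γ-actin from *Actg2*), sarcomeric isoforms (skeletal α-actin from *Acta1* and cardiac α-actin from *Actc1*), and cytoplasmic isoforms (β-actin from *Actb* and γ-actin from *Actg1*). *Acta2* is the main actin of vascular SMCs, *Actg2* is best known from the muscle of the gut and bladder, and the cytoplasmic isoforms are made in nearly every cell. Immature SMCs can also make sarcomeric isoforms in the embryo.

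The isoforms are almost the same as proteins but are separate genes that differ at many silent bases, which is what lets short reads be assigned to them. In GENCODE vM21 on GRCm38 (the assembly of mm10), *Acta2* lies on chromosome 19 from 34241090 to 34255590, *Actg2* on chromosome 6 from 83512905 to 83536265, and *Acta1* on chromosome 8 from 123891769 to 123894751. *Actc1* lies on chromosome 2 from 114047282 to 114053548, *Actb* on chromosome 5 from 142903115 to 142906754, and *Actg1* on chromosome 11 from 120345690 to 120348542, all 6 on the minus strand. The products of *Acta2* and *Actg2* differ at 2 of 376 aligned residues, whereas their coding sequences share only 84.4% of bases. The products of *Actb* and *Actg1* differ at 4 of 375 residues with 88.6% of coding bases shared. The stretch of 45 coding bases in which *Acta2* and *Actg2* differ most is shown for all 6 isoforms, with each base that differs from *Acta2* in capitals.
Acta2: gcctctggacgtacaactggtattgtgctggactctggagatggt
Actg2: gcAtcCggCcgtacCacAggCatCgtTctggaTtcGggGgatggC
Acta1: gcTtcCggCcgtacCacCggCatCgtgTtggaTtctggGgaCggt
Actc1: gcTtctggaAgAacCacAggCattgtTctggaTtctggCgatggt
Actb: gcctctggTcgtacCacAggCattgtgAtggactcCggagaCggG
Actg1: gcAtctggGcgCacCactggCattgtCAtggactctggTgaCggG

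In this stretch *Actg2* differs from *Acta2* at 12 bases and *Actb* at 8. Over the whole annotated transcripts, 0 of 1289 windows of 45 bases in *Actg2* and 0 of 1429 in *Actc1* also occur in a transcript of another gene (45 bases is the shortest read that was kept). For *Acta2* this held for 12 of 1991 windows, or 0.603%, all of them shared with *Actg1*. *Acta1* shared 2.57% of its windows, 33 of them with *Actb*, which is far more abundant. *Actb* shared 19.1% of its windows, 227 of them with *Lrrc58*, and *Actg1* shared 56.8%, with 988 windows in Gm12715, a gene with no row in the table. The levels of *Actb*, *Actg1*, and *Acta1* are therefore less certain, because the shortest reads from these windows cannot be assigned to a single gene.

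The libraries differed in ways that bear on the isoforms. The upper quartile of FPKM (fragments scaled by transcript length and by the mapped fragments of the library) was between 10.4 and 10.8, and between 8338 and 11886 genes were listed at 0. The depth is unknown, since the table has FPKM and no counts. The targeted gene *Prdm6* was at 41.7, 48.4, and 19.8 FPKM in WT0, WT1, and WT2 and at 48.6, 27.1, and 15.4 FPKM in KO0, KO1, and KO2. *Prdm6* thus overlapped between the groups, and since the sources used here do not say which part is floxed, its FPKM cannot check the labels. KO0 held *Xist* at 81.0 FPKM together with the Y-linked *Ddx3y* at 26.4 FPKM, whereas each of the other libraries was high for either *Xist* or *Ddx3y* alone, so values without KO0 are given beside the main differences. The summed FPKM of 16 smooth muscle markers was between 3439 and 5688 in WT and between 1558 and 2824 in KO. The sum of 21 heart muscle markers was 1888 in WT1 and 2150 in KO2, against 168 to 706 in the other 4 libraries. *Rn45s*, the precursor of ribosomal RNA, was listed at 0 in the 3 WT libraries and at 3060, 3806, and 4520 FPKM in KO0, KO1, and KO2. It was the only gene with an adjusted p under 0.05 in the whole table, and what part this RNA had in the FPKM of the isoforms was not tested. In bulk tissue, fewer SMCs and less RNA per SMC cannot be told apart.

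Among the isoforms, *Actg2* was the one that differed most between the groups, 2.97-fold lower in KO than in WT by the log2(FPKM + 0.1) fit, followed by *Acta2* at 1.80-fold lower with overlapping libraries. *Actb* was 1.27-fold lower, with KO just below WT, and *Actg1*, *Actc1*, and *Acta1* overlapped between the groups (exact permutation test p = 0.2, 0.7, and 0.7). The sum of the 6 isoforms was 6673, 4669, and 4375 FPKM in WT0, WT1, and WT2 and 4320, 3712, and 3281 FPKM in KO0, KO1, and KO2. Every KO library was below every WT library in this sum, with the gap between WT2 and KO0 under the spread within either group. With limma on log2(FPKM + 0.1) and Benjamini-Hochberg adjustment over all genes tested, 0 of the 6 isoforms had an adjusted p under 0.05, as against 0.00772% of all genes (1 gene). Before adjustment 1 isoform, *Actg2*, had a p under 0.05 and was lower in KO, where 4.97% of all genes tested did so, and 0 were higher, against 3.31% of all genes. The median log2 fold change was -0.26 over the 6 isoforms and 0.072 over all genes tested.

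**Figure D1:**
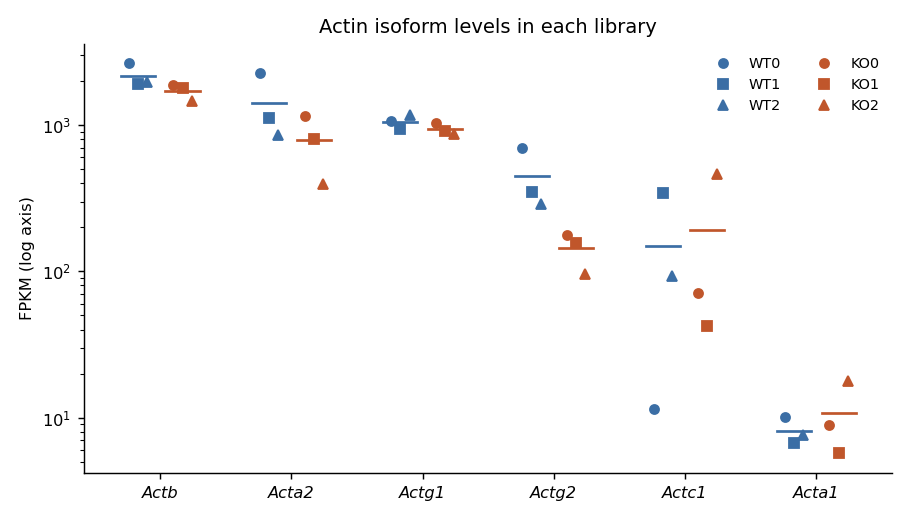
FPKM of each isoform (log axis) in the 3 WT libraries (blue) and the 3 KO libraries (orange), with a line at each group's mean. *Actg2* is lower in every KO library than in every WT library, and *Actc1* spreads from 11.4 to 344 FPKM in WT and from 42.0 to 460 FPKM in KO.

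FPKM is scaled per transcript length, so levels can be compared between genes. *Actb* had the highest level of the 6 isoforms in every library, and its mean FPKM ranked at position 19 among all genes. *Acta2* and *Actg1* followed at means of 1101 and 995 FPKM over all 6 libraries, and their order was not fixed, with *Acta2* above *Actg1* in WT0, WT1, and KO0 and below it in the other 3. *Actg2* had a mean of 294 FPKM and *Actc1* of 170 FPKM. The order of *Actg2* and *Actc1* was reversed in KO2, and the values were 349 and 344 FPKM in WT1. *Acta1* was the lowest isoform in every library, between 5.69 and 17.8 FPKM.

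*Actg2* was at 698, 349, and 289 FPKM in WT0, WT1, and WT2 and at 178, 157, and 95.9 FPKM in KO0, KO1, and KO2. Its highest KO library was well below its lowest WT library, with group means of 445 ± 221 FPKM (SD, n = 3) in WT and 144 ± 42.5 FPKM (SD, n = 3) in KO. The log2 fold change was -1.57 (standard error, SE, 0.37, 95% interval -2.43 to -0.71, limma unadjusted p = 0.00311, adjusted p = 0.459). Leaving out KO0 gave a log2 fold change of -1.75 (adjusted p = 0.604 from limma). An exact two-sided permutation of the 6 libraries gave p = 0.1, and no smaller p is possible with 3 against 3. Of all genes tested, 331 had a lower log2 fold change than *Actg2* and 87 had a smaller p in limma. Groups that did not overlap and were lower in KO were seen for 7.84% of all genes tested, and for 2 of the 6 isoforms, *Actg2* and *Actb*. In the other direction this was 8.21% of all genes and 0 isoforms.

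*Acta2*, which encodes αSMA, was at 2262, 1121, and 855 FPKM in WT0, WT1, and WT2 and at 1161, 809, and 396 FPKM in KO0, KO1, and KO2. WT0 was far above the other libraries and KO2 far below them, and KO0 was above both WT1 and WT2, so the groups overlapped. The means were 1413 ± 748 FPKM (SD, n = 3) in WT and 788 ± 383 FPKM (SD, n = 3) in KO. The log2 fold change was -0.85 (SE 0.48, 95% interval -1.97 to 0.28, limma unadjusted p = 0.12, adjusted p = 0.657). This interval includes no change as well as a difference as large as that of *Actg2*. Without WT0 the log2 fold change was -0.45, and without KO2 it was -0.42, whereas it was -1.19 without KO0. In the exact permutation test p was 0.3.

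**Figure D2:**
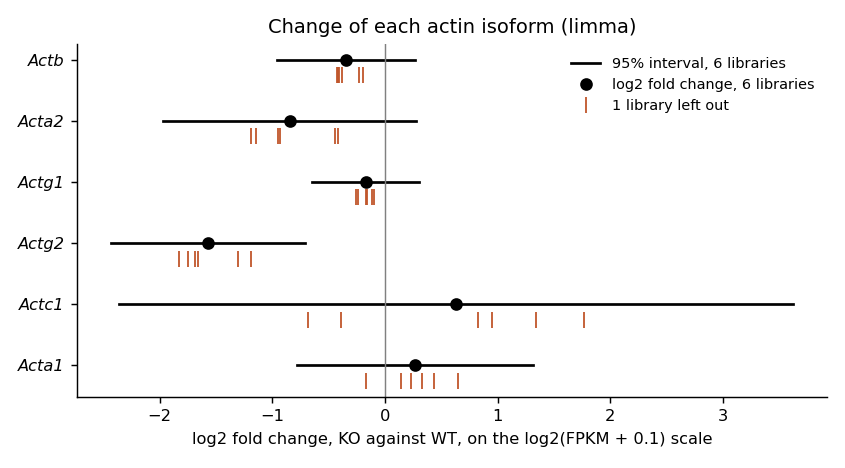
Log2 fold change of each isoform in KO against WT on the log2(FPKM + 0.1) scale from limma (point) with its 95% interval (line), and below it the log2 fold change with each of the 6 libraries left out (ticks). The interval of *Actg2* lies below 0, and the intervals of the other 5 isoforms include 0.

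The ratio of *Actg2* to *Acta2* within a library does not depend on the scaling between libraries. This ratio was 0.308, 0.312, and 0.337 in WT0, WT1, and WT2 and 0.153, 0.194, and 0.242 in KO0, KO1, and KO2. The WT libraries were close to each other although their *Acta2* level varied from 855 to 2262 FPKM, and every KO library lay below them. The log2 ratio was -1.65 ± 0.071 (SD, n = 3) in WT and -2.37 ± 0.33 (SD, n = 3) in KO, a difference of -0.72 (SE 0.20, exact permutation test p = 0.1). Without KO0, which had the lowest ratio, the difference was -0.56. Of 513 genes whose mean FPKM reached 100 and that were above 0 in every library, 7 (1.36%) had a ratio to *Acta2* that was lower in every KO library than in every WT library. The ratio was higher in every KO library for 76 genes (14.8%). The 7 genes were *Actg2*, *Clca2*, *Cnn1*, *Ctgf*, *Myh11*, *Tagln*, and *Tpm2*, a comparison chosen after the values were seen.

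Against *Actb*, *Actg2* had a ratio of 0.265, 0.183, and 0.147 in the WT libraries 0, 1, and 2 and of 0.0948, 0.0882, and 0.0662 in the KO libraries 0, 1, and 2. These groups did not overlap, and the log2 ratio differed by -1.23 (SE 0.29, exact permutation test p = 0.1). The ratio of *Acta2* to *Actb* was 0.859, 0.586, and 0.436 in WT and 0.620, 0.454, and 0.273 in KO in the same order. Here the groups overlapped, and the log2 ratio differed by -0.50 (SE 0.45, exact permutation test p = 0.5). *Actg2* was thus lower relative to both other isoforms, while *Acta2* was not separated from *Actb*.

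**Figure D3:**
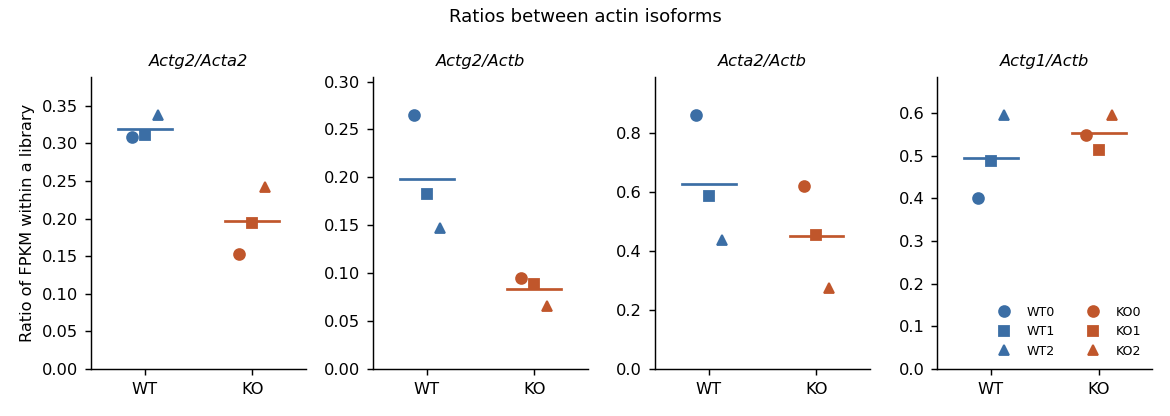
Ratio of FPKM between isoforms within each library, from 0, for WT (blue) and KO (orange), with a line at each group's mean. *Actg2/Acta2* and *Actg2/Actb* are lower in all 3 KO libraries than in all 3 WT libraries, and *Acta2/Actb* and *Actg1/Actb* overlap.

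Set beside the 16 smooth muscle markers, *Actg2* and *Acta2* took different places. Log2 fold changes of the markers ran from -2.14 for *Tpm2*, which encodes β-tropomyosin, to -0.42 for *Cald1*, which encodes caldesmon, with a median of -1.37. Of the 16 markers, 7 had a lower log2 fold change than *Actg2* and 10 had a lower one than *Acta2*. The ratio of *Acta2* to the marker was higher in every KO library than in every WT library for 7 markers (*Myh11*, *Tagln*, *Cnn1*, *Lmod1*, *Tpm2*, *Synpo2*, and *Itga8*) and overlapped for the other 9. For *Actg2* the ratio was lower in every KO library for 5 markers (*Smtn*, *Myl9*, *Mylk*, *Cald1*, and *Myocd*) and overlapped for the other 11. Over the 513 genes compared above, 1.36% had a ratio to *Acta2* lower in every KO library, meaning *Acta2* higher relative to the gene. That share covers only genes whose mean FPKM reached 100, which *Lmod1*, *Synpo2*, and *Itga8* did not. It also counts *Myh11*, *Tagln*, *Cnn1*, and *Tpm2* themselves, so it is not a separate background for the 7 markers. No such share was computed for *Actg2*, whose own level was lower in every KO library, so its 5 markers have no background beside them. All 16 markers had a log2 fold change below 0, 0 with an adjusted p under 0.05 and 9 with an unadjusted p under 0.05 in limma, where 44.4% of all genes were below 0 and 4.97% were lower at this p.

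As a share of the summed FPKM of the 6 isoforms, *Actg2* made up 10.5%, 7.48%, and 6.59% in WT0, WT1, and WT2 and 4.11%, 4.24%, and 2.92% in KO0, KO1, and KO2. The difference of the means was -4.42 percentage points (SE 1.24, exact permutation test p = 0.1), and it was -4.60 percentage points without KO0. *Acta2* made up 33.9%, 24.0%, and 19.5% in WT and 26.9%, 21.8%, and 12.1% in KO, which overlapped (exact permutation test p = 0.5). Within the 2 smooth muscle isoforms, *Actg2* held 23.6%, 23.8%, and 25.2% in WT and 13.3%, 16.3%, and 19.5% in KO. The cytoplasmic isoforms together held 55.3%, 61.0%, and 71.6% in WT and 67.2%, 72.7%, and 70.4% in KO, with WT2 inside the KO range. *Actb* alone held between 39.5% and 48.0% in all 6 libraries (exact permutation test p = 0.3).

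**Figure D4:**
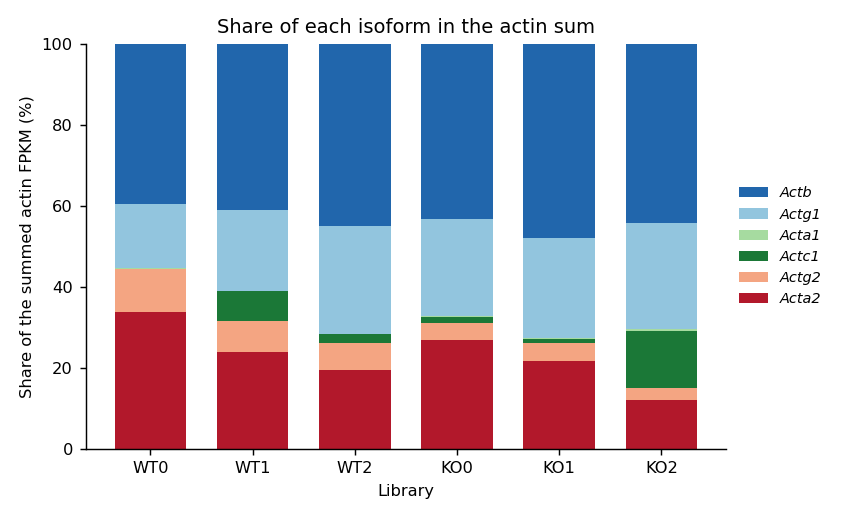
Share of each isoform in the summed FPKM of the 6 isoforms, in percent from 0 to 100, in each WT and KO library. The *Actg2* segment is 6.59% to 10.5% in WT and 2.92% to 4.24% in KO, and the *Actc1* segment is 14.0% in KO2 and 7.37% in WT1.

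Of the cytoplasmic isoforms, *Actb* was at 2634, 1913, and 1963 FPKM in WT0, WT1, and WT2 and at 1873, 1783, and 1449 FPKM in KO0, KO1, and KO2. The groups did not overlap, but KO0 and WT1 differed by less than the spread within either group. Its log2 fold change was -0.34 (SE 0.26, limma unadjusted p = 0.23, adjusted p = 0.713), and it was -0.20 without WT0. *Actg1* was at 1058, 935, and 1168 FPKM in WT and at 1028, 916, and 862 FPKM in KO, with a log2 fold change of -0.17 (SE 0.20, 95% interval -0.65 to 0.30, adjusted p = 0.799 from limma). Without WT2 the value for *Actg1* was -0.093, and without KO2 it was -0.11. The ratio of *Actg1* to *Actb* was between 0.402 and 0.595 in WT and between 0.514 and 0.595 in KO, which overlapped (exact permutation test p = 0.5). Quantile normalization, which forces the libraries to a common distribution, moved the log2 fold change of *Actb* to -0.61 (unadjusted p = 0.0405, adjusted p = 0.561 from limma).

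The sarcomeric isoforms did not separate the groups. *Actc1*, cardiac α-actin, was at 11.4, 344, and 93.3 FPKM in WT0, WT1, and WT2 and at 71.6, 42.0, and 460 FPKM in KO0, KO1, and KO2. WT0 was the lowest and KO2 the highest of the 6, each group spanned most of this range, and the log2 fold change of 0.63 had a standard error of 1.29 (adjusted p = 0.879 from limma). Its direction turned to -0.69 without WT0 and to -0.39 without KO2. WT1 and KO2, the libraries highest in *Actc1*, were also the 2 highest in heart muscle markers, and the level of *Actc1*, which is not in that list, equalled between 6.79% and 22.6% of their sum in all 6 libraries. Among the markers of heart muscle, *Myl4* (the atrial light chain) was at 349 and 508 FPKM in WT1 and KO2 and at 9.61 to 46.7 FPKM in the other 4. *Nppa* and *Nppb*, which encode natriuretic peptides, were under 1 FPKM in all 6 libraries, and of the 21 markers between 1 and 5 were at 0 in a library. What part heart tissue had in the level of *Actc1* was not tested.

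*Acta1*, skeletal α-actin, was at 10.1, 6.66, and 7.62 FPKM in WT and at 8.86, 5.69, and 17.8 FPKM in KO, in the order 0, 1, and 2. KO2 was the highest library, and the WT libraries lay among the others. The log2 fold change was 0.27 (SE 0.45, adjusted p = 0.854 from limma) and turned to -0.17 without KO2. *Acta1* was at 88.2% of *Actc1* in WT0 and at 1.93% to 13.5% in the other 5 libraries. Of 18 skeletal muscle markers, 7 were under 1 FPKM in all 6 libraries, including *Myod1*, the myogenic transcription factor, and the sum of the list was between 25.3 and 141 FPKM. What part reads of the far more abundant *Actb* had in the level of *Acta1*, which shares windows with it, was not tested.

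**Figure D5:**
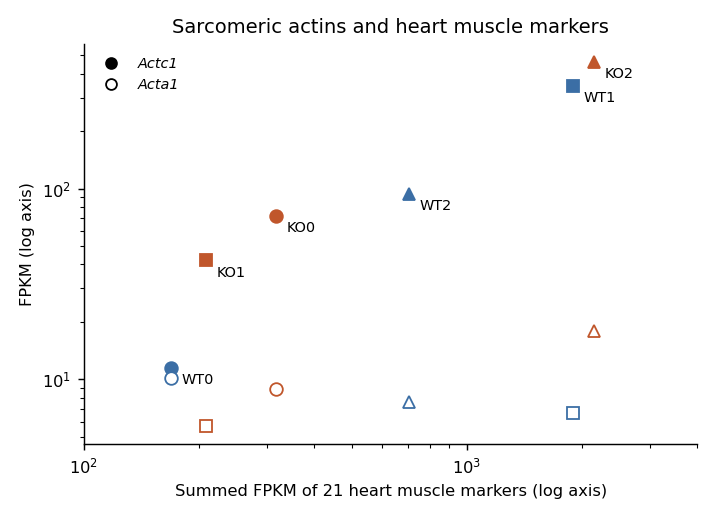
FPKM of *Actc1* (filled) and *Acta1* (open) against the summed FPKM of 21 heart muscle markers in each library, both on log axes, for WT (blue) and KO (orange). WT1 and KO2 stand at the right with *Actc1* at 344 and 460 FPKM, and *Acta1* stays between 5.69 and 17.8 FPKM.

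Muscle actin genes are textbook targets of SRF, a transcription factor that binds the CArG box, a motif of 10 bases with a core of 6 bases that are A or T, and that is driven to these genes by myocardin and its relatives. Promoters were found in the RefSeq table (GRCm38.p6) for 4 of the 6 isoforms, *Acta2*, *Acta1*, *Actc1*, and *Actg1*. None was found for *Actg2* or *Actb*. The 250 bases before the start that RefSeq gives for each gene are shown. Matches to the CArG box are in capitals, allowing 1 other base in the core. The motif reads the same on both strands. RefSeq and GENCODE differ in where these genes start. The RefSeq window of *Actc1* lies wholly inside the GENCODE gene given above, those of *Acta2* and *Actg1* lie partly inside it, and that of *Acta1* lies before it.
Acta2, chr19:34255374-34255623, minus strand: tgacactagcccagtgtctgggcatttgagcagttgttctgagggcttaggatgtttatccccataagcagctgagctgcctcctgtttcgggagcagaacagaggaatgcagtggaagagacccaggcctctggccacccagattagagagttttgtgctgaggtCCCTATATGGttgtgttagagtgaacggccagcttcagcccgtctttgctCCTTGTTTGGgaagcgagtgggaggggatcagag
Acta1, chr8:123894776-123895025, minus strand: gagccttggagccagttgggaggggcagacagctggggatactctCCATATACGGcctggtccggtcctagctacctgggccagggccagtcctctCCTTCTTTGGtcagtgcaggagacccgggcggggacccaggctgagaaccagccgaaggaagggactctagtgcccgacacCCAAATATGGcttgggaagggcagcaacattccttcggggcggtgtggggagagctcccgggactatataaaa
Actc1, chr2:114052876-114053125, minus strand: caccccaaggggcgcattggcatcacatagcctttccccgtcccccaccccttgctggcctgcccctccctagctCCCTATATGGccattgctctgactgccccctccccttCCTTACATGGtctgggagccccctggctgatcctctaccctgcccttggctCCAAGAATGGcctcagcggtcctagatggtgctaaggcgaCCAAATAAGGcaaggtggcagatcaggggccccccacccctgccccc
Actg1, chr11:120348496-120348745, minus strand: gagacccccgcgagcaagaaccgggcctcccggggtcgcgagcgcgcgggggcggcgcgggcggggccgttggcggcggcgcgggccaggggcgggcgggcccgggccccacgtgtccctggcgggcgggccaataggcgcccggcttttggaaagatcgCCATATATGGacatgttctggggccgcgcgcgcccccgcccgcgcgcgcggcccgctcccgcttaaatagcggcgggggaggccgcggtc

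*Acta2* held 2 matches, the first starting 84 bases and the second 34 bases before the RefSeq start, both with 1 other base in the core. *Acta1*, *Actc1*, and *Actg1* each held 1 exact match, starting 73, 47, and 90 bases before the start, and *Acta1* and *Actc1* held 2 and 3 further matches with 1 other base. Of 32851 promoter windows of the same length, 1.47% held an exact match and 8.59% held a match when 1 other base was allowed. A match describes these letters only and does not show binding in the DA. Whether SRF had a part in the level of any isoform was not tested.

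*Srf* itself was at 21.9, 18.6, and 23.9 FPKM in WT0, WT1, and WT2 and at 9.57, 13.5, and 10.3 FPKM in KO0, KO1, and KO2. The groups of *Srf* did not overlap, and the log2 fold change was -0.95 (SE 0.24, limma unadjusted p = 0.00471, adjusted p = 0.463). Its cofactor *Myocd* (myocardin) was at 37.5, 30.1, and 16.8 FPKM against 23.1, 15.0, and 12.4 FPKM in the same order, which overlapped (log2 fold change -0.71, adjusted p = 0.633 from limma). Of 11 tested genes for SRF and its cofactors, 0 had an adjusted p under 0.05 in limma and 3 had an unadjusted p under 0.05, all 3 lower in KO, against 4.97% of all genes, with a median log2 fold change of -0.49. *Csrp1*, which encodes a LIM protein of SMCs, had a log2 fold change of -0.88 without overlap, its relative *Csrp2* had -0.99 with overlap, and the highest value was 0.45 for the ETS factor *Elk4*, higher in KO without overlap.

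The genes of proteins that bind along the smooth muscle thin filament had a median log2 fold change of -0.45, between those of *Acta2* and *Actb*. This list shares members with the smooth muscle markers. Of 16 tested, 14 had a log2 fold change below 0, against 44.4% of all genes, and 7 had an unadjusted p under 0.05, all lower in KO, against 4.97% of all genes, with 0 past the adjusted threshold in limma. *Tpm2* was at 290, 176, and 280 FPKM in WT0, WT1, and WT2 and at 57.6, 67.2, and 42.9 FPKM in KO0, KO1, and KO2. Its log2 fold change of -2.14 (SE 0.26, limma unadjusted p = 4.09e-05, adjusted p = 0.17) was the lowest of the list, and its groups were far apart. *Lmod1* (leiomodin, which nucleates actin filaments in SMCs) had a log2 fold change of -2.05, *Cnn1* (calponin) of -2.02, and *Synpo2* of -1.60. For *Tagln* (SM22) it was -1.13, for *Tpm1* -0.78, and for *Cnn3* -0.41. All 6 were named for having groups without overlap and an unadjusted p under 0.05 in limma. Of the 16 genes, 8 were lower in KO without overlap, against 7.84% of all genes. *Smtnl2* was the highest at 0.40 with overlap.

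Other genes that handle actin, some of them known from certain cell types, were taken in 5 lists. They are to be read against the 44.4% of all genes tested whose log2 fold change was below 0. Of 22 genes for actin monomer binding and severing, 11 had a log2 fold change below 0, and the median was 0.0080. The exception in size was *Tmsb10*, thymosin β10, which holds actin monomers. It was at 154, 186, and 261 FPKM in WT0, WT1, and WT2 and at 23.4, 66.1, and 65.0 FPKM in KO0, KO1, and KO2, without overlap (log2 fold change -2.07, SE 0.41, limma unadjusted p = 0.00123, adjusted p = 0.383). Its more abundant relative *Tmsb4x*, thymosin β4, was at 1128, 895, and 591 FPKM against 1399, 1139, and 854 FPKM, with a log2 fold change of 0.40 and overlapping groups. *Coro1b* (coronin) was higher in KO without overlap at 0.48, and *Pfn2* (profilin) had the highest value of the list at 0.51 with overlap. *Tmsb4x* was named after its values were seen.

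Among 35 genes for nucleation and capping, 18 had a log2 fold change below 0, the median was -0.048, and *Lmod1*, which is also in this list, was the lowest. Without overlap and with an unadjusted p under 0.05, *Daam1* (a formin) and *Cttn* (cortactin) were lower at -0.50 and -0.40, and *Arpc1a*, a subunit of the Arp2/3 complex, was higher at 0.51. *Tmod2*, a capping protein known from neurons, had the highest value at 0.89 with overlap. Of 22 genes for crosslinking and anchoring, 16 were below 0, a larger share than the 44.4% of all genes, with a median of -0.23, and *Nexn* (nexilin), *Zyx* (zyxin), and *Enah* were lower without overlap at -1.30, -0.86, and -0.69. *Lcp1*, the plastin of leukocytes, was highest at 0.72 with overlap.

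The 21 tested genes for folding and modification of actin, among them the subunits of the CCT chaperonin and prefoldin, had a median log2 fold change of -0.090, with 13 below 0. *Mical2*, which oxidizes actin, was lower in KO at -0.67 without overlap, as were *Pfdn5* at -0.58, *Pdcl3* at -1.73, and *Pfdn2* at -4.54, the last with a listing at 0 in KO0. *Msrb1*, listed at 0 in WT2, had the highest value at 2.21 with overlap. The actin-related proteins, relatives of actin that serve Arp2/3, dynactin, and chromatin complexes, had 10 tested members with a median of -0.069. Their values ran from -1.83 for *Actr3b*, listed at 0 in KO1, to 1.13 for *Actr5*. Across these 5 lists, 0 genes had an adjusted p under 0.05 in limma. With an unadjusted p under 0.05, monomer binding had 2 lower and 1 higher, nucleation and capping 3 lower and 1 higher, crosslinking 3 lower, folding 4 lower, and the actin-related proteins 0. Of all genes tested, 4.97% were lower and 3.31% higher at this p, and *Lmod1* is counted among the nucleators as well as the thin filament genes.

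The likeness of other genes to each isoform was measured as the root mean square difference over the 6 libraries between log2(FPKM + 0.1) values, each centred on its own mean, for 6327 genes whose mean FPKM reached 10. The nearest genes to *Acta2* were *Tagln* at 0.19, *Wrb* at 0.20, and *Adarb1* at 0.24. Those nearest to *Actg2* were *Synpo2* at 0.16, *Ctgf* at 0.20, and *Myh11* (smooth muscle myosin heavy chain) at 0.24. *Actg2* and *Acta2* were 0.41 apart, with 63 genes closer to *Acta2* than *Actg2* was and 20 closer to *Actg2* than *Acta2* was. For *Actc1* the nearest were *Fabp3* at 0.39, *Mybpc3* at 0.40, and *Myl4* at 0.41, of which *Mybpc3* and *Myl4* encode sarcomere proteins of the heart. *Actb* was most like *Wwp2* at 0.076, *Tfam* at 0.079, and *Wdr1* at 0.091, and *Actg1* was most like *Gdi2* at 0.044, *Kat6a* at 0.049, and *Nek9* at 0.049. *Acta1* was nearest to *Naa25* at 0.23, *Ormdl3* at 0.24, and *Sc5d* at 0.25, and 0 of these 3 remained among the nearest when genes down to a mean FPKM of 1 were compared. By the same check, 2 of 3 remained for *Acta2*, *Actg2*, and *Actb*, which lost *Adarb1*, *Myh11*, and *Wdr1* in that order. All 3 remained for *Actc1* and *Actg1*. The measure is a description, and steady genes such as *Actg1* find close neighbours easily.

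Markers of other cells moved with the groups to different degrees. The summed FPKM of 12 neuron markers was between 9.77 and 27.1 in WT and between 42.2 and 73.0 in KO, without overlap. *Stmn2* alone was at 12.3, 3.69, and 19.1 FPKM in WT and at 32.5, 27.7, and 29.7 FPKM in KO. *Nefm* was under 1 FPKM in all 6 libraries, and between 0 and 7 of the 12 were at 0 in a library. Of 7 tested, 3 were higher in KO without overlap, against 8.21% of all genes. Schwann cell, erythroid, endothelial, fibroblast, leukocyte, and epithelial markers overlapped between the groups, with erythroid sums of 3863 to 7584 FPKM in WT and 4284 to 24360 FPKM in KO. What part these cells had in the levels and shares of the isoforms was not tested.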

How the data were processed

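Reads were quality-trimmed and mapped by the authors to mm10 using TopHat2, and FPKM from Cufflinks and Cuffdiff were deposited, with 1 value per gene and library. Versions and the gene annotation are not given in the sources used here. Groups and replicate numbers were taken from the sample titles. From the deposited FPKM, log2(FPKM + 0.1) was computed, genes whose mean FPKM reached 1 were kept, and limma 3.58.1 (R 4.3.3) was fitted to KO against WT with trended empirical Bayes moderation, a two-sided p, Benjamini-Hochberg adjustment, and a threshold of 0.05. On this log scale the differences of genes that are low but above 0 come out too small. Where a gene is at 0 in a library, its log2 fold change depends on the value added. With 1 added in place of 0.1 it was 1.14 for *Msrb1*, -3.29 for *Pfdn2*, and -0.73 for *Actr3b*. Shares and ratios were compared with two-sided exact permutation tests in scipy 1.17.1, and no p is given for the actin sum, a score over all members. The members, the gene lists, the rule for named genes, and the alternatives were chosen with earlier results of these data known. The genes named by this rule are the isoforms, *Prdm6*, the 3 genes most like each isoform, and in each list of actin genes the lowest and highest log2 fold change and those without overlap at an unadjusted p under 0.05, and the marker genes of highest mean FPKM. *Myocd*, *Tmsb4x*, the genes that check the libraries, the marker genes absent or low, and the genes compared by their ratio to *Acta2* or *Actg2* were named after their values were seen. Coding sequences and 45-base windows came from GENCODE vM21 and promoters from RefSeq.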

Additional observations from a re-analysis of the deposited data

How the results depend on the processing

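The log2 fold changes of *Acta2*, *Actg2*, *Actb*, and *Actg1* kept a negative sign under all 16 alternatives run for each, and 0 of the 6 isoforms had an adjusted p under 0.05 in any of them. Leaving out each library in turn gave values from -1.19 to -0.42 for *Acta2*, from -1.83 to -1.19 for *Actg2*, from -0.17 to 0.65 for *Acta1*, from -0.69 to 1.76 for *Actc1*, from -0.43 to -0.20 for *Actb*, and from -0.25 to -0.093 for *Actg1*. *Acta1* was also reversed, at -0.30, without the 2 libraries highest in heart muscle markers. In the same way, the difference between KO and WT in the share of *Actc1* ranged from -1.83 to 4.61 percentage points. The difference in the log2 ratio ranged from -0.24 to 2.72 for *Actc1* to *Acta2* and from -0.89 to -0.56 for *Actg2* to *Acta2*. The cause was not tested. Relative to all genes, the median of the monomer binding list turned to 0.042 with a mean FPKM of at least 5 and to 0.034 with quantile normalization, and that of the folding list to 0.0086 with quantile normalization. Over the whole table, the count of genes with an adjusted p under 0.05 was 1 and became 2 without the mean-variance trend, without moderation, and without the 2 libraries highest in heart muscle markers, and leaving out single libraries gave 1 to 2. The replicate numbers did not pair the libraries, with correlations of same-numbered deviations of 0.12, -0.076, and -0.0088. With the replicate block, the log2 fold change of *Actg2* was -1.57 (limma unadjusted p = 0.000214, adjusted p = 0.24). That of *Acta2* was -0.85 (limma unadjusted p = 0.00883, adjusted p = 0.418), where the unadjusted p was 0.12 in limma without the block. No call changed. With 3 libraries against 3, a two-sided exact test cannot give a p under 0.1.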
